A study of Homo sapiens with 12 samples.

Results

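The deubiquitinase USP7 and 9 proteins known to be its substrates or binding partners, TRIM27, GMPS, UHRF1, DNMT1, RAD18, UVSSA, TRIP12, DAXX and CLSPN, were examined at the level of their mRNA in K562 cells exposed to a USP7 inhibitor. The genes were chosen by name, matched through their Ensembl identifiers to GENCODE symbols, and make up 10 of the 60609 genes listed. All 10 were among the 13895 genes with enough counts to be tested. K562 is an established line of human leukemia cells with erythroid features, which arose from chronic myeloid leukemia. FT671 blocks the catalytic activity of USP7. The RNA-seq comparison comprised 3 libraries of K562 cells treated with the solvent DMSO and 3 libraries of K562 cells treated with 10 μM FT671, all for 48 h. The series also lists 6 ChIP samples of the same cell line, which were not analysed here. The paper speaks of independent experiments, while the labels do not say which libraries share a culture or day, so that p-values measure the spread between these libraries, all of 1 cell line at 1 dose and 1 time.

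USP7 removes ubiquitin from other proteins and so spares them from the proteasome or alters their activity, and it does the same for several E3 ubiquitin ligases that would otherwise ubiquitinate themselves. Its partners here act in chromatin and DNA repair: some are ligases (TRIM27, UHRF1, RAD18, TRIP12), some are enzymes or adaptors bound by USP7 (GMPS, DNMT1, UVSSA, DAXX, CLSPN). In K562 cells USP7 and TRIM27 also associate with the non-canonical Polycomb complex PRC1.1, which ubiquitinates histone H2A at CpG islands. USP7 regulates these partners mainly as proteins, whereas the data described here count their mRNA.

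Library totals ranged from 4555220 counts in FT671 replicate 1 to 14250500 counts in DMSO replicate 1, so that 3 counts, taken as the smallest detectable level, corresponded to between 0.211 and 0.659 CPM (counts per 1000000 counts of a library). DMSO replicate 3 stood apart from the other DMSO libraries, differing from them by a chi-square per degree of freedom of 7.55 and 8.73, while the other pairs within a group gave 2.07 to 3.20. Of 10 erythroid markers of K562 cells 9 were tested, 3 were higher and 6 lower after FT671, and their summed level ran from 1270 to 1309 CPM in DMSO and from 1128 to 1166 CPM in FT671 libraries. Of 10 markers of lymphoid, myeloid, stromal, endothelial and epithelial cells 5 were tested, and MS4A1 and KRT5 had 0 counts in every library. The summed level was 103.8 to 104.8 CPM in DMSO and 134.2 to 137.0 CPM in FT671 libraries, mostly EPCAM, CD3D and PECAM1. The part of this marker shift in the results was not tested. In bulk RNA, fewer cells of a type and less RNA per cell cannot be told apart.

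The stretch upstream of the start site is shown for the members with the greatest fall (USP7), the next greatest (UVSSA) and the greatest rise (UHRF1). USP7 associates with a complex that sits on CpG-rich DNA. Binding of that complex at these promoters, and any tie of CG content to the mRNA changes, was not tested. Sequences are from the RefSeq promoter table (GRCh38.p14), run 5′ to 3′ on the gene's strand with every CG dinucleotide in capitals, and hold only bases outside annotated exons. USP7 is chr16:8963907-8964156 (minus strand, 43 CG), UVSSA chr4:1346958-1347058 (plus strand, 8 CG) and UHRF1 chr19:4909251-4909429 (plus strand, 19 CG).
USP7: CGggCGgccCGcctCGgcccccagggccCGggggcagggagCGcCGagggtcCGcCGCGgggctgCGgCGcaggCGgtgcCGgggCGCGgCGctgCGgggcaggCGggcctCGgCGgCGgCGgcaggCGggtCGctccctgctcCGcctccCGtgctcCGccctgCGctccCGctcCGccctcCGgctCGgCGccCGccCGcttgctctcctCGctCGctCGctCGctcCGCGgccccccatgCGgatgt
UVSSA: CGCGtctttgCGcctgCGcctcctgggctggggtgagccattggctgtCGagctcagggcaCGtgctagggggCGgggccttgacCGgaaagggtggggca
UHRF1: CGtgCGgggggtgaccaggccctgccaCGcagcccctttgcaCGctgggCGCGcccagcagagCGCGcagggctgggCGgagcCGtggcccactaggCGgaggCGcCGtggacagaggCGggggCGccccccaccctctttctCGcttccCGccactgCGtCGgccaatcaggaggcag

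Of the 10 members, 8 had an entry in this table, and TRIM27 and DAXX did not. The start of the TRIP12 entry (229921789, minus strand) differed from its GENCODE canonical start (229922009), so that most of its window lies downstream of the latter. Over the full window of 250 bases before and 50 after the start, the USP7 promoter held 50 CG dinucleotides, and 98.7% of the 35116 promoters of the table held fewer. The other matched members ranged from 18 CG (CLSPN) to 39 CG (GMPS), against a median of 14 over all promoters. The E2F motif, searched on both strands as TTTCGCGC, TTTGGCGC, TTTCCCGC or TTTGCCGC, was present in the windows of UHRF1, DNMT1 and CLSPN and in 3.31% of all promoters. The SP1 motif GGGCGG was present in 7 of the 8 members and 45% of all promoters, CCAAT in 4 of 8 and 34.6%, and CCGGAAG in 2 of 8 and 10.3%. These matches are descriptions of letters in the window. The SP1 letters stood in the windows of USP7 and UVSSA, whose mRNA fell, and of UHRF1 and RAD18, whose mRNA rose.

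USP7 mRNA fell more than that of any partner. USP7 (ENSG00000187555, hg38 chr16:8892097-8975328, minus strand) was measured at 119, 107 and 131 CPM in DMSO replicates 1, 2 and 3 and at 29.3, 34.1 and 35.8 CPM in FT671 replicates 1, 2 and 3. The groups lay far apart, and the lowest DMSO library was 2.98 times the highest FT671 library. The mean went from 119 ± 12.3 to 33.1 ± 3.38 CPM (SD, n = 3 each), 27.8% of the DMSO level. The log2 fold change was −1.82 (SE 0.104, 95% confidence interval −2.05 to −1.60), a 3.54-fold fall with a Benjamini-Hochberg adjusted p of 2.66e-08 by edgeR's quasi-likelihood test. The values rest on 711 to 1714 counts in the DMSO and 132 to 401 counts in the FT671 libraries. Across the transcriptome, 121 of the 13895 genes tested (0.871%) had a log2 fold change as low as USP7 or lower, and 9 of the 1913 genes with at least its DMSO level did. The fall passed an adjusted p of 0.05 in all 19 alternative fits, with a log2 fold change between −1.90 and −1.68. The antisense gene USP7-AS1 shares no exon base with USP7 and had at most 6 counts in any library.

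**Figure D1:**
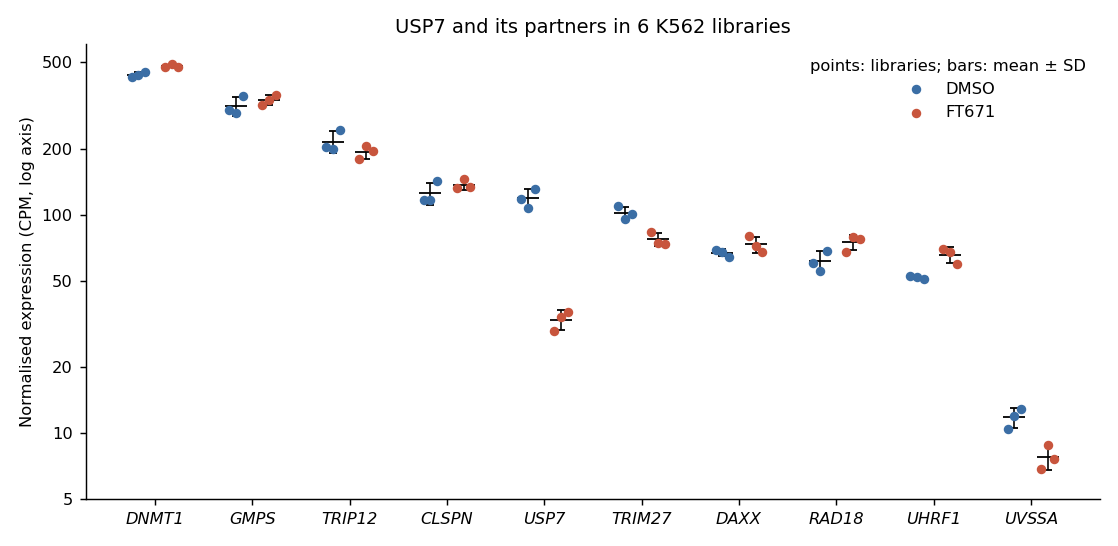
Normalised expression (CPM, log axis) of the 10 genes in each of the 6 libraries, with blue points for DMSO, red points for FT671, and black bars for the mean ± SD of 3 libraries. The 3 FT671 points of USP7 lie between 29.3 and 35.8 CPM, below all of its DMSO points, while for the partners the colours lie close together or overlap.

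TRIM27 and GMPS are long-known companions of USP7 and behaved differently. TRIM27 is a ubiquitin ligase that forms a complex with USP7 and is itself deubiquitinated by it, and its mRNA fell modestly. TRIM27 (ENSG00000204713, chr6:28903002-28923988, minus strand) was at 109, 95.2 and 101 CPM in the DMSO libraries and at 83.3, 74.5 and 73.5 CPM in the FT671 libraries. Every FT671 library was below every DMSO library. The mean of 102 ± 7.07 CPM became 77.1 ± 5.39 CPM, with a log2 fold change of −0.41 (SE 0.0856, adjusted p = 0.00125), a 1.33-fold fall that passed 0.05 in all 19 alternatives.

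GMPS, the enzyme that makes guanosine monophosphate and also binds USP7 and stimulates its activity, had no detectable change. Its levels (ENSG00000163655, chr3:155870650-155944020, plus strand) were 302, 291 and 352 CPM in DMSO and 317, 335 and 355 CPM in FT671 libraries. The groups overlapped, since DMSO replicate 3 was nearly as high as the highest FT671 library. The log2 fold change was 0.10 (95% interval −0.08 to 0.27, adjusted p = 0.343). Without DMSO replicate 3 it was 0.18 with an adjusted p of 0.0174, and after a loess correction of each library for gene length 0.24 with an adjusted p of 0.00814.

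UHRF1 and DNMT1, the pair that copies DNA methylation to newly made strands, both lay higher in every FT671 than in every DMSO library, and the difference passed the test for UHRF1. UHRF1 reads hemimethylated DNA and ubiquitinates histone H3, which recruits the methyltransferase DNMT1, and USP7 binds both proteins. UHRF1 (ENSG00000276043, chr19:4903080-4962154, plus strand) was at 52.6, 52.0 and 50.8 CPM in the DMSO libraries and at 69.7, 67.5 and 59.3 CPM in the FT671 libraries. The DMSO values were nearly alike, and FT671 replicate 3 was the lowest of its group. The mean rose from 51.8 ± 0.884 to 65.5 ± 5.52 CPM, a log2 fold change of 0.33 (SE 0.0918, adjusted p = 0.00878), and the call held in all 19 alternatives.

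DNMT1 (ENSG00000130816, chr19:10133342-10231286, minus strand) had the most counts of the members, at 429, 437 and 449 CPM in DMSO and 477, 489 and 477 CPM in FT671 libraries. The means were 438.5 ± 10.3 and 480.8 ± 7.01 CPM. The log2 fold change of 0.13 did not pass (95% interval −0.004 to 0.27, adjusted p = 0.0982). It did so without DMSO replicate 3 (0.14, adjusted p = 0.0373), and after correction of the libraries for gene length (0.28, adjusted p = 0.0018) or GC content (0.21, adjusted p = 0.0131). DNMT1 shares 83 exon bases (0.54% of its exons) with S1PR2, which had at most 122 counts in a library, and how reads in shared bases were counted is not given in the sources used here. UHRF1 counts per DNMT1 count were 0.123, 0.119 and 0.113 in the DMSO and 0.146, 0.138 and 0.124 in the FT671 libraries. This ratio was higher in every FT671 library, by 0.20 on the log2 scale, with an exact permutation p of 0.1 (two-sided), the smallest that 3 against 3 libraries allow.

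RAD18, UVSSA and CLSPN serve different DNA repair and replication stress pathways, and RAD18 was called higher, UVSSA lower and CLSPN in neither direction. RAD18, the ligase that ubiquitinates PCNA so that translesion polymerases can pass damaged bases, was higher after FT671. RAD18 (ENSG00000070950, chr3:8775402-8963773, minus strand) was at 60.3, 55.2 and 68.6 CPM in the DMSO libraries and at 67.7, 79.0 and 77.8 CPM in the FT671 libraries. The groups overlapped narrowly, with DMSO replicate 3 above FT671 replicate 1. The mean was 61.4 ± 6.74 CPM in DMSO and 74.9 ± 6.20 CPM in FT671 libraries, a log2 fold change of 0.30 (SE 0.0989, adjusted p = 0.0205). The call, more than the size of the change, depended on single libraries. The log2 fold change was 0.29 without DMSO replicate 1 (adjusted p = 0.0695), 0.24 without DMSO replicate 2 (adjusted p = 0.0889), 0.27 without FT671 replicate 2 (adjusted p = 0.0954) and 0.27 without FT671 replicate 3 (adjusted p = 0.0935). Thinned to the smallest library total, it was 0.26 (adjusted p = 0.0631).

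UVSSA brings USP7 to RNA polymerase II stalled at DNA damage, where USP7 spares the repair factor ERCC6 from degradation. UVSSA mRNA (ENSG00000163945, chr4:1345691-1395989, plus strand) was at 10.5, 12 and 12.9 CPM in the DMSO libraries and at 6.88, 8.84 and 7.60 CPM in the FT671 libraries, from 31 to 151 counts each. Every FT671 library was below every DMSO library, although this is the member with the fewest counts. The mean fell from 11.8 ± 1.25 to 7.77 ± 0.99 CPM, with a log2 fold change of −0.58 (SE 0.161, adjusted p = 0.0086), a 1.49-fold fall. After thinning of every library to the smallest library total, the log2 fold change of −0.46 no longer passed (adjusted p = 0.0672).

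CLSPN encodes claspin, the adaptor through which the kinase ATR activates CHEK1 when replication forks stall. Its levels (ENSG00000092853, chr1:35720218-35769978, minus strand) were 117, 117 and 142 CPM in DMSO and 132, 146 and 134 CPM in FT671 libraries, so that DMSO replicate 3 lay among the FT671 libraries. The log2 fold change was 0.13 (95% interval −0.06 to 0.32, adjusted p = 0.221), and 0.22 without DMSO replicate 3 (adjusted p = 0.00717). After correction for gene length (0.28, adjusted p = 0.00503) or GC content (0.17, adjusted p = 0.0437) it passed with all libraries. A lncRNA on the opposite strand (ENSG00000232335) shares 280 exon bases with CLSPN, 2.92% of its exons, and had 62 to 184 counts a library. Without a stated strand setting the reads of these 280 bases cannot be assigned to either gene.

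TRIP12 and DAXX did not pass the test. TRIP12, a ligase of the HECT class that limits ubiquitin signalling at DNA breaks, was at 205, 199 and 245 CPM in the DMSO libraries and at 179, 206 and 195 CPM in the FT671 libraries (ENSG00000153827, chr2:229763837-229923239, minus strand). The groups overlapped, and DMSO replicate 3 was the highest library. The log2 fold change was −0.15 (95% interval −0.34 to 0.04, adjusted p = 0.167), and it was 0.003 after correction for gene length.

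DAXX, a chaperone that deposits histone H3.3 and resides in PML nuclear bodies, was at 69.1, 67.7 and 64.1 CPM in the DMSO libraries and at 80.0, 71.8 and 67.7 CPM in the FT671 libraries (ENSG00000204209, chr6:33318558-33323016, minus strand). FT671 replicate 3 lay within the DMSO range, and the log2 fold change was 0.11 (95% interval −0.07 to 0.30, adjusted p = 0.297). Of the 19 alternatives it passed only in those with the GC correction, at 0.19 with no other change (adjusted p = 0.0316). DAXX shares 441 exon bases, 14.3% of its exons, with the gene ENSG00000285064, which had 0 counts in every library.

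Counted together, 2 of the 10 genes were higher (UHRF1, RAD18) and 3 lower (USP7, TRIM27, UVSSA) at an adjusted p of 0.05. Of all genes tested 23.6% were higher and 26.5% lower, and in this fit the share of members called was near the background in both directions. The members higher numbered 5 of 10 without DMSO replicate 3, with the gene length correction and with the GC correction, where 25.7%, 27.7% and 28.9% of all genes were higher. At the threshold of the study's methods, an adjusted p of 1e-05, USP7 was the 1 member called, lower, where 1.79% of all genes were higher and 4.13% lower. Every FT671 library was above every DMSO library in 2 members (UHRF1, DNMT1) and below in 3 (USP7, TRIM27, UVSSA), against 26.8% and 30.3% of all genes. The median log2 fold change was 0.11 over the members and −0.01 over all genes. Leaving USP7 aside, the partners' log2 fold changes reached at most 0.58 in size (UVSSA), with a median size of 0.15 against 0.36 over all genes tested. All genes tested include many with lower counts, and the comparison of sizes was not matched for level.

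**Figure D2:**
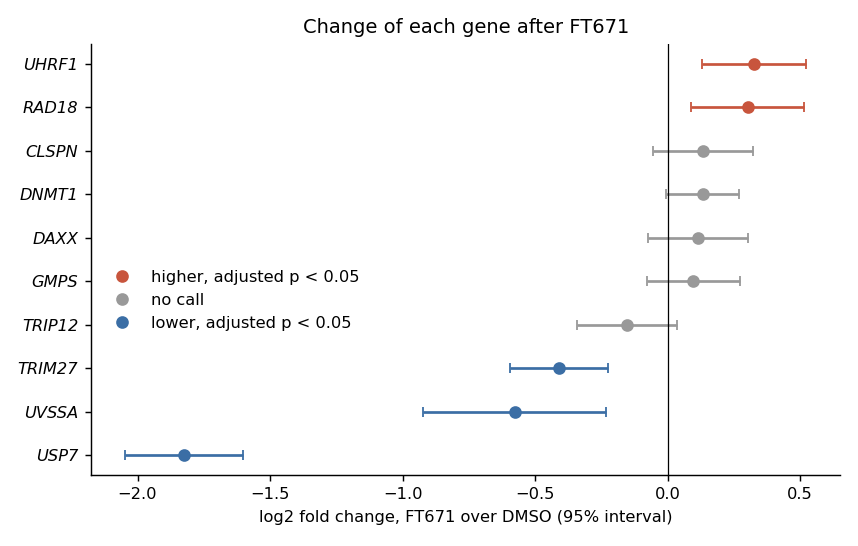
Log2 fold change of each gene, FT671 over DMSO, from edgeR's quasi-likelihood fit of 3 libraries a group, with horizontal bars for the 95% confidence interval, red for genes called higher, blue for genes called lower and grey for no call. USP7 stands alone at −1.82, and the intervals of GMPS, DNMT1, TRIP12, DAXX and CLSPN reach across 0.

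The balance of each partner's counts to those of USP7 was taken within each library, which does not depend on how libraries are scaled. All 9 ratios were higher in every FT671 than in every DMSO library, and all share the fall of USP7 as their denominator. TRIM27 counts per USP7 count were 0.921, 0.890 and 0.771 in the DMSO libraries and 2.84, 2.19 and 2.05 in the FT671 libraries. In DMSO cells the TRIM27 count was thus just below that of USP7, and in FT671 cells it was above it in every library. RAD18 per USP7 was the steadiest ratio, at 0.508, 0.517 and 0.522 in DMSO and 2.31, 2.32 and 2.17 in FT671 libraries. The rise ran from 1.24 on the log2 scale for UVSSA and 1.44 for TRIM27 to 2.14 for RAD18 and 2.18 for UHRF1, the last a 4.54-fold difference in the ratio. Each gave an exact permutation p of 0.1 (two-sided, 3 against 3 libraries), the smallest possible with this design. Against the geometric mean of the other 9 members, USP7 fell by 1.84 on the log2 scale (exact permutation p = 0.1).

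**Figure D3:**
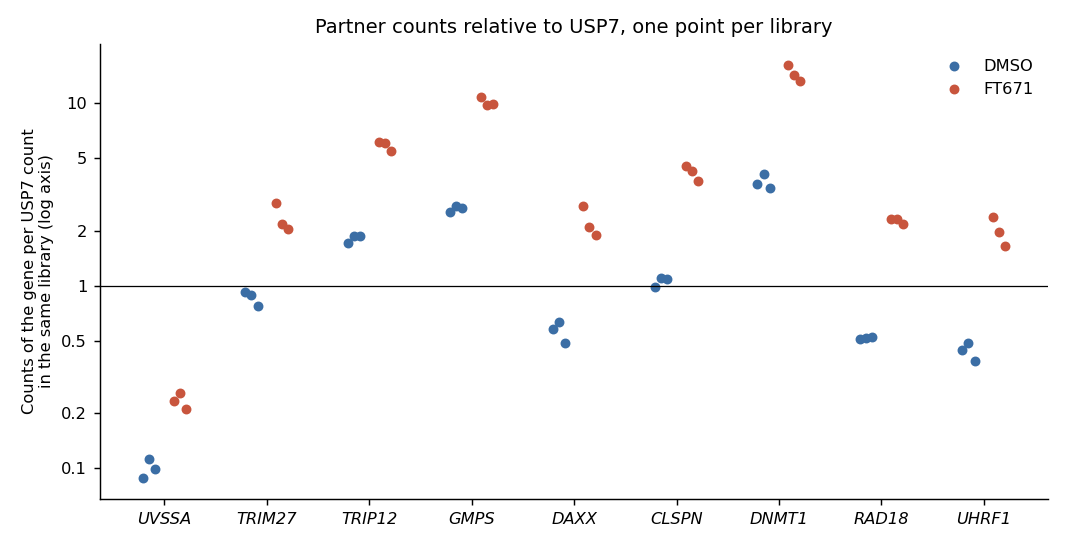
Counts of each partner per USP7 count in the same library (log axis), with 3 blue points for DMSO and 3 red points for FT671 libraries and a line where both counts are equal. Every red point lies above the blue points of its gene, and TRIM27, DAXX, RAD18 and UHRF1 pass from below to above the line.

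Levels were compared between genes as CPM per kilobase of exon (RPKM), with the union of annotated exons as the length. In DMSO libraries the order by mean was GMPS at 35.9 ± 3.68, DNMT1 at 28.5 ± 0.667, DAXX at 21.7 ± 0.830, TRIP12 at 15.8 ± 1.82, USP7 at 13.6 ± 1.40, CLSPN at 13.1 ± 1.5, TRIM27 at 12.8 ± 0.886, UHRF1 at 10.1 ± 0.172, RAD18 at 8.79 ± 0.964 and UVSSA at 0.697 ± 0.0741 RPKM (SD, n = 3). The library ranges of TRIP12, USP7, CLSPN and TRIM27 overlapped from one to the next, so that USP7 was not separable from its neighbours in DMSO cells. In FT671 libraries USP7 moved from rank 5 to rank 9 with 3.79 ± 0.387 RPKM, apart from TRIM27 above it at 9.65 ± 0.675 RPKM and UVSSA below it at 0.459 ± 0.0585 RPKM. Above these stood GMPS at 38.3, DNMT1 at 31.3, DAXX at 23.7, CLSPN at 14.3, TRIP12 at 14.1, UHRF1 at 12.7 and RAD18 at 10.7 RPKM, where CLSPN, TRIP12 and UHRF1 overlapped from one to the next and RAD18 overlapped TRIM27. With the longest transcript as the length, USP7 held the same ranks, and GMPS and DNMT1 traded the first place.

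Genes that act beside each member were taken from 11 lists, and the called gene with the largest change in each direction is named where it is reported. Of 32 other reported USP7 partners, all tested, 6 were higher and 10 lower (18.8% and 31.2%, against 23.6% and 26.5% of all genes), and the median log2 fold change was 0.02. These counts moved with single libraries, to 10 higher without DMSO replicate 3 and to 6 lower without FT671 replicate 1. MDM2, a ubiquitin ligase that USP7 deubiquitinates, was lower (−0.72, adjusted p = 2.67e-05), and its relative MDM4 was higher (0.94, adjusted p = 3.49e-06). FBXO38, a ubiquitin ligase subunit, fell most in this list (−0.85, adjusted p = 4.75e-05). MDM4 and MDM2 thus lay on opposite sides, and this pair was chosen after its values were seen.

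Around TRIM27, which with MAGEL2 ubiquitinates the WASH complex on endosomes, 7 of 8 genes were tested. Of these 4 were higher and 2 lower (57.1% and 28.6%, against 23.6% and 26.5% of all genes), with a median of 0.43. Without DMSO replicate 1, DMSO replicate 2, FT671 replicate 2 or FT671 replicate 3, or after thinning, 2 were higher. WASHC2A, a WASH subunit, rose most (1.13, adjusted p = 3.13e-05), but reads may be split with its near-identical copy WASHC2C and both values are uncertain. Both are among the 4 higher. WASHC1, also among them, rested on 16 to 53 counts a library (adjusted p = 0.0472). UBE2O, a ubiquitin enzyme of the same pathway, fell from 87.8 ± 1.48 to 44.8 ± 4.11 CPM (−0.98, adjusted p = 1.14e-06). MAGEL2 had 0 counts in every library, so this TRIM27 partner was not detected. Around GMPS, 3 of 6 guanylate enzymes were higher and 1 lower (50% and 16.7%), with a median of 0.07. Without any 1 of the FT671 replicates 1, 2 and 3, 1 was higher, and without DMSO replicate 3, 2 were lower. HPRT1, which salvages guanine and hypoxanthine, rose from 55.7 ± 6.19 to 99.1 ± 7.61 CPM (0.85, adjusted p = 8.17e-06). IMPDH1, which catalyses the step before GMPS, fell from 49.2 ± 3.25 to 31.8 ± 6.57 CPM (−0.66, adjusted p = 0.000705). IMPDH2, of the same step and at a higher level, rose from 468.6 ± 43.3 to 546.4 ± 11.1 CPM (0.22, adjusted p = 0.0256).

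Around UHRF1 and DNMT1, 2 of 6 maintenance methylation genes were higher and 1 lower, with a median of −0.0005. These are 33.3% and 16.7%, against 23.6% and 26.5% of all genes. UHRF2, the homologue of UHRF1, was higher (0.47, adjusted p = 0.00193). PCNA, the sliding clamp on which DNMT1 and the translesion polymerases are loaded, fell from 113 ± 5.90 to 41.7 ± 3.48 CPM (−1.44, adjusted p = 5.15e-08). Around RAD18, PCNA was the 1 gene called of 11 translesion genes (9.09% lower, 0% higher), and the median was 0.07. Without DMSO replicate 3, however, 2 of the translesion genes were called higher. The mRNA of the ligase was thus called higher and that of its substrate lower, but the RAD18 call held in only 14 of 19 alternatives. Around UVSSA, 2 of 9 transcription-coupled repair genes were higher (22.2%) and the other 7 had no call, with a median of 0.14. ERCC8, the substrate receptor of the ligase that acts at stalled polymerase, rose from 8.6 ± 1.2 to 15.1 ± 1.01 CPM (0.79, adjusted p = 0.000553). ERCC6, the protein that UVSSA and USP7 stabilise, was at 28.9 CPM in DMSO and 29.3 CPM in FT671 libraries (0.04, adjusted p = 0.806).

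The list around TRIP12 had the lowest median of the 11, −0.60, with 5 of 7 tested genes lower (71.4%, against 26.5% of all genes) and 1 higher (14.3%, against 23.6%). UBE4B, a ubiquitin chain elongation factor, fell from 130.9 ± 14.3 to 40.4 ± 4.4 CPM (−1.69, adjusted p = 4.85e-08). UFD1, a cofactor of the segregase VCP, was higher (0.36, adjusted p = 0.000607), whereas VCP itself was lower (−1.21, adjusted p = 3.30e-08) and is named after its value was seen. Around DAXX, 2 of 6 genes were higher and 1 lower (33.3% and 16.7%), with a median of −0.01. Without DMSO replicate 1, DMSO replicate 2 or FT671 replicate 3, 1 was higher. H3-3A, which encodes the histone H3.3 that DAXX deposits, was higher (1.41, adjusted p = 2.05e-05), but it has many processed copies in the genome and its count is uncertain. It was at 6.73 CPM in DMSO and 17.3 CPM in FT671 libraries. H3-3B, which also encodes H3.3, was at 526.4 and 542.7 CPM and had no call (0.04, adjusted p = 0.684). PML, the scaffold of nuclear bodies, was lower (−0.32, adjusted p = 0.00485).

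Around CLSPN, 2 of 13 checkpoint genes were higher and 4 lower (15.4% and 30.8%, against 23.6% and 26.5% of all genes). The median was −0.05. TIMELESS, which binds claspin at replication forks, rose from 122.6 ± 6.01 to 160.9 ± 7.21 CPM (0.39, adjusted p = 0.000621). BTRC, the ligase subunit that marks claspin for degradation, fell from 34.0 ± 3.57 to 15 ± 1.73 CPM (−1.14, adjusted p = 6.23e-06). CLSPN, UHRF1 and DNMT1 vary with the cell cycle, and the cycle lists were therefore counted beside them. Of 19 S phase genes 3 were higher (15.8%, against 23.6% of all genes) and 9 lower (47.4%, against 26.5%), with a median of −0.18, PCNA falling most and MCM4, a subunit of the replicative helicase, rising most (0.45, adjusted p = 0.000111). Their summed level was 4594 to 4867 CPM in DMSO and 4500 to 4609 CPM in FT671 libraries, ranges that overlap. Of 13 tested G2/M genes 2 were higher and 3 lower (15.4% and 23.1%), with a median of −0.06. Among those called were the mitotic kinase PLK1 (−0.90, adjusted p = 2.41e-07) and the centromere protein CENPF (0.34, adjusted p = 0.023). The G2/M genes higher numbered 5 without DMSO replicate 3 and 1 without DMSO replicate 1, DMSO replicate 2 or FT671 replicate 3. The part of the cell cycle in the members' values was not tested. Over all lists, 27 of 121 tested genes were higher and 33 lower, 22.3% and 27.3%, near the 23.6% and 26.5% of all genes, with a median of 0.02.

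**Figure D4:**
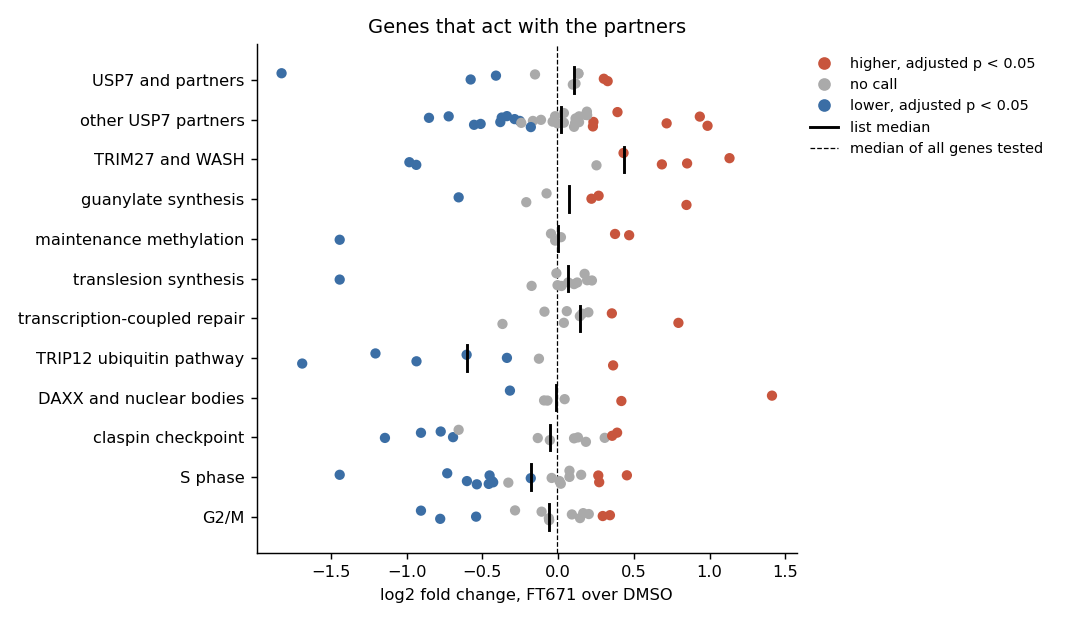
Log2 fold change, FT671 over DMSO, of each tested gene in the member list and the 11 companion lists, red for genes called higher, blue for lower and grey for no call, with a black line at each list's median and a dashed line at the median of all genes tested. The TRIP12 list has its median at −0.60 and the TRIM27 and WASH list at 0.43, and USP7 at −1.82 is farther to the left than every companion gene.

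The genes whose levels followed USP7 most closely over the 6 libraries were CUL3, a ubiquitin ligase scaffold (Pearson r of log2 CPM 0.9995), SORT1, a sorting receptor (0.9992), SEC23A, a coat protein of transport vesicles (0.9989), ACVR2B, an activin receptor (0.9986) and DYRK3, a kinase (0.9983). The comparison took in 9194 genes with a mean of at least 10 CPM, of which 1263 had r above 0.95. The 6 libraries share their treatments, so that much of this likeness is the separation of the same 3 libraries from the other 3. All 5 genes fell less than USP7, with log2 fold changes from −1.10 (DYRK3) to −0.46 (SEC23A).

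**Figure D5:**
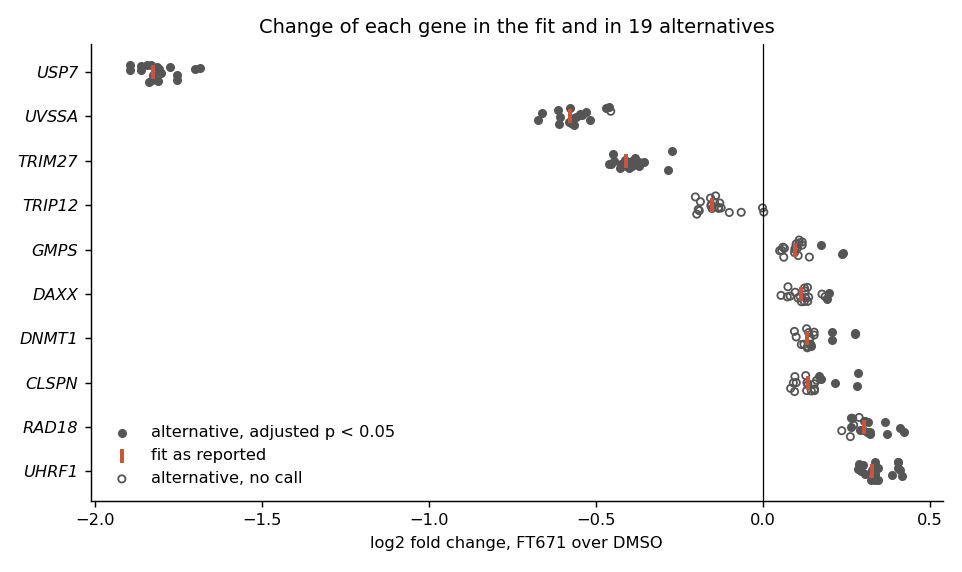
Log2 fold change of each gene, FT671 over DMSO, in the fit as reported (red tick) and in 19 alternative fits (filled circles past an adjusted p of 0.05, open circles not past it). USP7 stays between −1.90 and −1.68, all 19 circles of TRIM27 and UHRF1 are filled, and RAD18 has 5 open circles.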

How the data were processed

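RNA was depleted of ribosomal RNA (KAPA RNA HyperPrep with RiboErase) and sequenced paired-end on a NextSeq500. The authors ran STAR (two-pass mode) against hg38 and deposited its raw count of each gene in each library. The STAR version, annotation release and strand setting are not given in the sources used here. Symbols, positions and exon lengths were taken from GENCODE release 44 for 60295 of 60609 genes, and the unmatched 314 held 0.0609% of the counts.

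The counts were filtered with filterByExpr, scaled by TMM and compared between 3 DMSO and 3 FT671 libraries by edgeR's (4.0.16, R 4.3.3) quasi-likelihood test with no covariate. Adjustment over 13895 genes was by the Benjamini-Hochberg method, and a call is an adjusted p under 0.05. Levels are CPM on TMM-scaled library sizes. The floor of 3 counts covers counting error only. Ratios within a library were tested by exact permutation over all splits of 3 against 3 libraries, with Python 3.11.15 and numpy 2.4.6. Promoter sequences are from RefSeq (GRCh38.p14). Scripts were tested on simulated data.

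The members and lists were chosen with earlier results of these data known. Named are all members, the called gene with the largest change in each direction of each list, the 5 genes most like USP7, and overlapping genes. Alternatives were other scalings, filters and gene sets, DESeq2 1.42.0, the replicate block, loess corrections (span 0.3) for length and GC, thinning, other lengths and bases of comparison, and leaving out each library. A gene of these lists that the rule would name is not reported here. The 6 ChIP samples were not analysed here.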

Additional observations from a re-analysis of the deposited data

How the results depend on the processing

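The calls of USP7, TRIM27 and UHRF1 at 0.05 held in all 19 alternatives. The number of members higher after FT671 (2) was 5 with the gene length correction and 5 with the GC correction, each with and without the replicate block, and 1 after thinning. Of all genes tested, 27.7% were higher with the length correction and 28.9% with the GC correction. With the block added these shares were 28.2% and 28.9%, and after thinning the share was 22.4%. Leaving out 1 library gave 1 to 5 members higher. There were 5 without DMSO replicate 3 (GMPS, DNMT1 and CLSPN added), where 25.7% of all genes were higher. There was 1 without DMSO replicate 1, DMSO replicate 2, FT671 replicate 2 or FT671 replicate 3 (RAD18 lost). In those fits 19.8%, 21.3%, 18.4% and 18.9% of all genes were higher, in that order. At an adjusted p of 1e-05, edgeR called 0 members higher and 1 lower, and DESeq2 also 0 higher, where 2 were higher at an unadjusted p under 0.05 in edgeR. The number of companion genes higher (27) was 41 with the gene length correction and the replicate block. Over the single lists and the 19 alternatives, 37 of 418 counts moved by over 1.5 times, among them other USP7 partners higher (6) to 10 and 13 with the gene length correction without and with the block, and PML, the DAXX gene called lower, lost its call with that correction. TRIP12 turned to 0.003 with the gene length correction. With the geometric mean of the other 9 members as the base, the ratios of TRIM27 (−0.24) and UVSSA (−0.46) were negative, since this base does not fall as USP7 does. The cause of the other shifts was not tested. The median of all genes lay between −0.05 and 0.04 in every fit.

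Same-numbered libraries did not deviate together in every pair (r = 0.115, −0.0605 and 0.14 for numbers 1, 2 and 3), and FT671 replicates 1 and 2 correlated best with DMSO replicates 2 and 3, so the numbers were not used as pairs. The replicate block called 3374 genes higher and 3761 lower, against 3276 and 3687 without it, of which 3167 and 3593 were shared, and changed no member's call. Depth limits UVSSA most, with as few as 31 counts in a library.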
